A study of Mus musculus with 7 samples.

Results

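The 10 genes described here are Lin28a, Lin28b, Hmga1, Hmga2, Igf2bp1, Igf2bp2, Igf2bp3, Prom1, Nes and Msi1, genes of the oncofetal let-7 axis and markers of neural stem cells, chosen by name. All 10 were found among the 34592 genes counted, and 9 of the 10 passed the filter on low counts, as did 17389 genes in all. RNA was sequenced from 7 mouse Group 3 medulloblastomas (G3 MBs), 4 with enforced expression of WDR11 (WDR11OE) and 3 controls. All 7 tumors came from 1 tumorsphere line, which goes back to cerebellar granule neuron progenitors that lacked Trp53 and Cdkn2c and were transduced with an MSCV retrovirus carrying Myc and GFP. The dissociated spheres were infected with a pCDH-EF1 lentivirus that encodes human WDR11 with copGFP, or with the empty vector, and were then placed in the cortex of CD1-nu/nu mice, whose tumors were frozen as chunks once the mice were moribund. The sample labels give the controls no treatment, whereas the treatment protocol describes the empty vector. Infected cells were not sorted and a chunk can hold host tissue. The methods describe lentiviral infection of only part of the cells, and name young adult recipients for the founding tumors. The source field of the labels names tumorspheres, whereas the protocols extract the RNA from tumor chunks, and the samples are called tumors here. The tumors of the 2 groups also carry library names from separate series, so that a difference in handling and the effect of WDR11 cannot be told apart.

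LIN28 proteins bind the precursors of the let-7 microRNAs and block their maturation, and let-7 in turn represses the mRNAs of Lin28, Hmga2 and the Igf2bp genes, which makes a double-negative loop. The HMGA proteins are small chromatin factors that bend AT-rich DNA, and the IGF2BP proteins bind and stabilise mRNAs such as those of Igf2, Myc and Actb. Many of these genes, though not all, are high in the embryo, fall in most adult tissues and return in many tumors. Prom1 (CD133), Nes (nestin) and Msi1 (Musashi 1, an RNA-binding protein that restrains translation of Numb) are used as markers of neural stem cells and of the stem-like cells of brain tumors.

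The total count was 35463784, 41397427 and 33417175 in control replicates 1 to 3 and 42252257, 85371523, 32116095 and 87141305 in WDR11OE replicates 1 to 4. Levels are given as CPM, the usual scale of counts relative to the library total, here the total after TMM scaling, and 3 counts, taken as the floor of detection, correspond to between 0.0329 and 0.0924 CPM. The mouse Wdr11 gene was at 58.9, 58.3 and 59.3 CPM in the controls and at 66.8, 61.0, 65.7 and 68.9 CPM in the WDR11OE tumors. All 4 WDR11OE tumors were above the 3 controls, by a log2 fold change of 0.16 ± 0.06 (SE) that did not pass the test (edgeR quasi-likelihood test, adjusted p = 0.0910; exact permutation p = 0.0571). Over the 18 alternatives its adjusted p lay between 0.0454, with upper quartile scaling, and 0.999, with the GC trend removed. Reads of the human cDNA were not counted as a gene of their own, so the row neither shows nor checks the overexpression.

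Hmga1, Igf2bp2 and Msi1 fell in the WDR11OE tumors, and no member rose. The 3 lower members of the 9 tested stand beside 15.8% of all tested genes that were lower at adjusted p under 0.05 (edgeR quasi-likelihood test, Benjamini-Hochberg adjustment), and the 0 higher members stand beside 18.1%. At an unadjusted p under 0.05, 4 members were lower and 1 was higher. limma with voom gave 3 lower and 0 higher, and DESeq2 gave 4 lower and 1 higher. The shares of 15.8% and 18.1% belong to the edgeR test at adjusted p under 0.05 only. No share over all genes is given for the unadjusted p, limma or DESeq2, so the member counts under these have no background beside them. Of the 3 genes that fell, Igf2bp2 and Msi1 fell at least 2-fold, beside 3.45% of tested genes, and 0 members rose as far, beside 2.36%. Without regard to the test, the groups did not overlap for 3 members that were lower, beside 19.1% of tested genes, and for 2 that were higher, Lin28b and Igf2bp1, beside 23.5%. With 9 genes tested, these counts are not read as a result about the members as a set. In these bulk samples, fewer cells of a type and less RNA per cell cannot be told apart.

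Lin28a, the paralog that is typical of pluripotent cells, was at the floor. Its row (ENSMUSG00000050966, chr4:133559245-133574756, minus strand, NCBIM37) held 3, 0 and 0 counts in the controls and 0, 2, 1 and 2 counts in the WDR11OE tumors. No tumor exceeded the 3 counts of the floor, and no fold is given. The lincRNA Gm13061, which overlaps it on the opposite strand, was at 0 in every tumor. Lin28b (ENSMUSG00000063804, chr10:45096426-45206201, minus strand) was at 4.72, 8.89 and 10.3 CPM in the controls and at 12.9, 11.7, 14.9 and 26.0 CPM in the WDR11OE tumors. Every WDR11OE tumor was above every control, and WDR11OE replicate 4 was the highest. The mean was 7.97 ± 2.90 CPM (SD, n = 3) in the controls and 16.4 ± 6.57 CPM (SD, n = 4) in the WDR11OE tumors. The difference had the smallest p that 35 assignments allow (two-sided exact permutation p = 0.0286), but at a log2 fold change of 1.04 ± 0.37 (SE) it missed the threshold over all genes (edgeR adjusted p = 0.0672). DESeq2 passed it (adjusted p = 0.0202), and adjusted p lay between 0.0202 and 0.247 over all 18 alternatives. The highest of these came from the fit that takes out the GC trend, with a log2 fold change of 0.60, and the exons of Lin28b have 40.2% GC. Without WDR11OE replicate 4 it was 0.72 (adjusted p = 0.0924).

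Hmga1 fell 1.99-fold, and Hmga2 showed no change that passed the test. Hmga1 (ENSMUSG00000046711, chr17:27693565-27700619, plus strand) was at 141, 196 and 236 CPM in the controls and at 96.9, 104, 100.4 and 83.1 CPM in the WDR11OE tumors. The groups did not overlap, and the controls spread more widely than the WDR11OE tumors. The log2 fold change was -0.99 ± 0.17 (SE; edgeR adjusted p = 0.00452; exact permutation p = 0.0286). Its exons have 61.2% GC, and a fit that takes out the GC trend gave -0.57 and lost the call (adjusted p = 0.117; the range over the 18 alternatives was 1.0e-06 to 0.117). Across protein-coding genes the median log2 fold change went from 0.39 in the fifth lowest in GC content to -0.22 in the fifth highest, so GC content moved with the contrast. An exon of AI413582 overlaps Hmga1 on the opposite strand, and that row did not pass the test (log2 fold change -0.36; edgeR adjusted p = 0.292).

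Hmga2 (ENSMUSG00000056758, chr10:119798331-119913525, minus strand), the family member that let-7 represses through several sites, was at 8.98, 9.73 and 10.1 CPM in the controls and at 7.32, 5.68, 10.4 and 13.7 CPM in the WDR11OE tumors. The WDR11OE tumors lay on both sides of the controls, and their SD was 3.55 CPM (n = 4) against 0.565 CPM (n = 3). Its log2 fold change was -0.05 ± 0.29 (SE; edgeR adjusted p = 0.922), and its sign turned under several alternatives. An exon of the lincRNA 1700006J14Rik overlaps Hmga2 on the opposite strand, and the strand setting of the counting is not given in the sources used here. That row held 0.137 to 0.674 CPM.

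The 3 IGF2BP genes did not move together. Igf2bp2, which binds mRNAs of growth and metabolism and is a known transcriptional target of HMGA2, fell. Its row (ENSMUSG00000033581, chr16:22059082-22163372, minus strand) was at 6.39, 19.4 and 13.2 CPM in the controls and at 3.22, 2.88, 4.499 and 4.51 CPM in the WDR11OE tumors. Control replicate 1 was the lowest control, and every WDR11OE tumor was below it. Its log2 fold change was -1.78 ± 0.37 (SE), 3.44-fold lower, and passed the test in the fit and under all 18 alternatives (edgeR adjusted p = 0.00967; range 1.4e-05 to 0.0349; exact permutation p = 0.0286).

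Igf2bp1 (ENSMUSG00000013415, chr11:95818477-95867254, minus strand), also known as the zipcode-binding protein of Actb mRNA, was at 18.3, 45.2 and 42.5 CPM in the controls and at 61.5, 47.7, 54.0 and 52.0 CPM in the WDR11OE tumors. All WDR11OE tumors were above all controls, with control replicate 1 far below the other controls. The difference on the log2 scale was 0.60 ± 0.29 (SE; edgeR adjusted p = 0.156; exact permutation p = 0.0286), and without control replicate 1 it was 0.29 (adjusted p = 0.105; range over the 18 alternatives 0.105 to 0.315). Igf2bp3 (ENSMUSG00000029814, chr6:49035220-49164953, minus strand) was at 29.2, 67.7 and 91.2 CPM in the controls and at 48.5, 50.4, 40.2 and 32.1 CPM in the WDR11OE tumors. Control replicate 1 was below every WDR11OE tumor and the other controls were above them all. The log2 fold change was -0.55 ± 0.35 (SE; edgeR adjusted p = 0.279), and without control replicate 1 it was -0.90 and passed the test (adjusted p = 0.0233; range over the 18 alternatives 0.0233 to 0.755). Igf2bp3 overlaps exons of 2410003K15Rik on the opposite strand, which rose by 0.58 ± 0.10 (SE) on the log2 scale (edgeR adjusted p = 0.00520), with means of 11.8 ± 0.393 CPM (SD, n = 3) and 17.7 ± 1.24 CPM (SD, n = 4), and whether the counting kept reads of the pair apart in the shared stretch is not known, since its strand setting is not given. Per kilobase of exon, Igf2bp1 was 2.10, 1.72 and 2.37 times Igf2bp2 in the controls and 14.1, 12.2, 8.84 and 8.48 times Igf2bp2 in the WDR11OE tumors. The ratio was higher in every WDR11OE tumor than in any control and was not tested.

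Of the 3 stem cell markers, Msi1 fell and Nes and Prom1 did not pass the test. Msi1 (ENSMUSG00000054256, chr5:115879608-115905707, plus strand) was at 29.4, 35.03 and 29.3 CPM in the controls and at 6.13, 6.82, 8.07 and 8.68 CPM in the WDR11OE tumors. The lowest control was more than 3-fold above the highest WDR11OE tumor. Msi1 fell by 2.07 ± 0.15 (SE) on the log2 scale, a 4.21-fold lower level (edgeR adjusted p = 0.000858; exact permutation p = 0.0286), and its log2 fold change stayed between -2.16 and -1.87 over the 18 alternatives. Its paralog Msi2 was at 245, 159.8 and 192 CPM in the controls and at 167, 170.5, 175 and 164 CPM in the WDR11OE tumors (log2 fold change -0.24; edgeR adjusted p = 0.232).

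Nes (ENSMUSG00000004891, chr3:87775000-87784373, plus strand), an intermediate filament gene, was nearly level over the 7 tumors, at 47.4, 50.002 and 46.3 CPM in the controls and 51.2, 51.6, 44.2 and 49.5 CPM in the WDR11OE tumors. Its log2 fold change was 0.04 ± 0.08 (SE; edgeR adjusted p = 0.745), and its sign turned under several alternatives. Prom1 (ENSMUSG00000029086, chr5:44384864-44493271, minus strand), a membrane glycoprotein gene, was at 4.31, 6.10 and 6.34 CPM in the controls and at 2.91, 3.61, 2.87 and 4.70 CPM in the WDR11OE tumors. WDR11OE replicate 4 lay above control replicate 1, so that the groups overlapped. An exon of Gm16401, a row with 0 to 9 counts a tumor, overlaps Prom1 on the opposite strand. The log2 fold change was -0.66 ± 0.25 (SE; edgeR adjusted p = 0.0755; exact permutation p = 0.0857), and without WDR11OE replicate 4 it was -0.83 and passed the test (adjusted p = 0.0278; range over the 18 alternatives 0.0265 to 0.199).

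**Figure D1:**
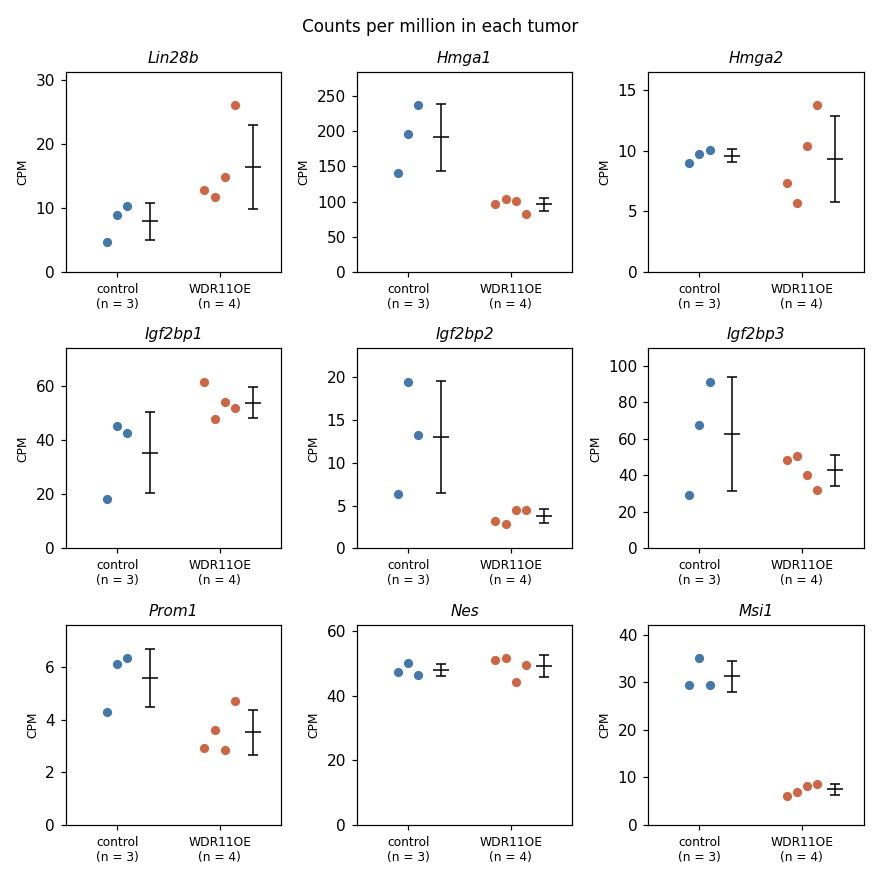
CPM of the 9 tested members in each tumor, with 1 panel per gene and its own axis from 0. Points are tumors (3 control, 4 WDR11OE), and the bar with caps beside them gives the mean and SD of the group. The groups are apart for Hmga1, Igf2bp2 and Msi1, which were lower in the WDR11OE tumors, and for Lin28b and Igf2bp1, which were higher.

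Compared between genes per kilobase of merged exon (RPKM), Hmga1 was the most abundant member in both groups, at 96.1 ± 24.0 RPKM (SD, n = 3) in the controls and 48.2 ± 4.54 RPKM (SD, n = 4) in the WDR11OE tumors. In the controls it was followed by Igf2bp3 at 14.4 ± 7.21, Nes at 7.46 ± 0.299, Msi1 at 5.39 ± 0.562 and Igf2bp1 at 3.65 ± 1.53 RPKM (SD, n = 3). Below them came Igf2bp2 at 1.82 ± 0.913, Hmga2 at 1.42 ± 0.0834, Prom1 at 1.24 ± 0.246 and Lin28b at 0.879 ± 0.3198 RPKM (SD, n = 3). Neighbours in this order whose tumors overlapped were Igf2bp3 and Nes, Igf2bp1 and Igf2bp2, and each pair of neighbours among the lowest 4 genes.

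In the WDR11OE tumors the order below Hmga1 was Igf2bp3 at 9.85 ± 1.94, Nes at 7.66 ± 0.532, Igf2bp1 at 5.55 ± 0.598, Lin28b at 1.81 ± 0.724, Hmga2 at 1.37 ± 0.524, Msi1 at 1.28 ± 0.199, Prom1 at 0.779 ± 0.189 and Igf2bp2 at 0.530 ± 0.119 RPKM (SD, n = 4). Here the neighbours whose tumors overlapped were Igf2bp3 and Nes, Lin28b and Hmga2, and Hmga2 and Msi1. Msi1 thus stood between Nes and Igf2bp1 in the controls and between Hmga2 and Prom1 in the WDR11OE tumors, and Igf2bp2 became the lowest of the tested members. Lin28a was below 0.0238 RPKM in 6 tumors and at that level in control replicate 1.

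**Figure D2:**
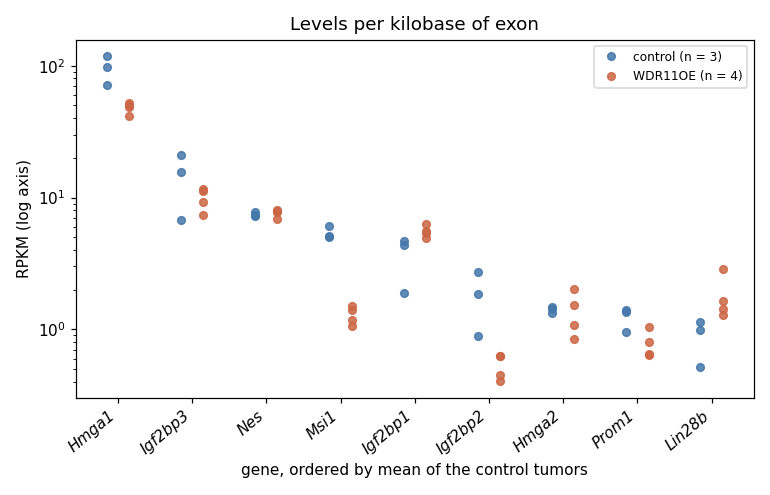
Level of each tested member per kilobase of exon in the 3 control and 4 WDR11OE tumors, on a log axis, with genes ordered by the control mean. Each point is a tumor. Hmga1 lies above 41.7 RPKM in every tumor, and Msi1 and Igf2bp2 are lower in every WDR11OE tumor than in any control.

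The let-7 microRNAs were represented by 10 hairpin loci in the counts, of which 7 passed the filter and all 7 rose. Among these 7, Mir98, Mirlet7b and Mirlet7i were too low in the controls to pass without the WDR11OE tumors. The filter thus favored a rise at these loci, and the shared direction of the 7 is not read as a result. Summed over the 10 loci, they held 3.59, 2.77 and 2.15 CPM in the controls and 8.88, 10.6, 10.7 and 11.9 CPM in the WDR11OE tumors, from 129, 116 and 70 counts and from 375, 853, 348 and 1085 counts. A read in such a row comes from a primary transcript or precursor, or from an intron of a host gene, and does not measure the mature microRNA. Of 103 tested microRNA rows outside the let-7 family, 32 were higher (31.1%, beside 18.1% of all tested genes) and 5 lower, with a median log2 fold change of 0.805, beside 0.08 over all tested genes. Whether the let-7 loci rose by more than other hairpin loci was not tested.

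Mirlet7d (chr13:48631381-48631483) was at 1.0005, 0.763 and 0.674 CPM in the controls and at 3.05, 4.005, 3.91 and 4.40 CPM in the WDR11OE tumors, a log2 fold change of 2.24 ± 0.24 (SE; edgeR adjusted p = 0.00115). Mirlet7a-1 in the same cluster rose by 1.55 ± 0.25 (SE) on the log2 scale (adjusted p = 0.00381), and Mirlet7b and Mirlet7c-2 on chromosome 15 by 2.25 ± 0.40 and 1.68 ± 0.32 (SE; adjusted p = 0.00520 and 0.00732). Mir98 (chrX:148347757-148347864) lies in an intron of Huwe1. It rose by 2.42 ± 0.52 (SE; adjusted p = 0.0108), whereas Huwe1, a ubiquitin ligase gene, fell by 0.53 ± 0.13 (SE; adjusted p = 0.0165). Mirlet7c-1 and Mirlet7i passed at adjusted p = 0.0188 and 0.0145 and lost the call under several alternatives (highest adjusted p 0.0729 and 0.0847), among them Mirlet7c-1 without control replicate 2 or 3 or WDR11OE replicate 1 and Mirlet7i without control replicate 1. Mirlet7a-2, Mirlet7f-2 and Mirlet7g were too low for the test, as were Mir125a and Mir125b-2. Mir125b-1, whose product targets Lin28 as let-7 does, had 4 to 22 counts a tumor and did not pass the test (log2 fold change 0.29 ± 0.56, SE; adjusted p = 0.729).

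**Figure D3:**
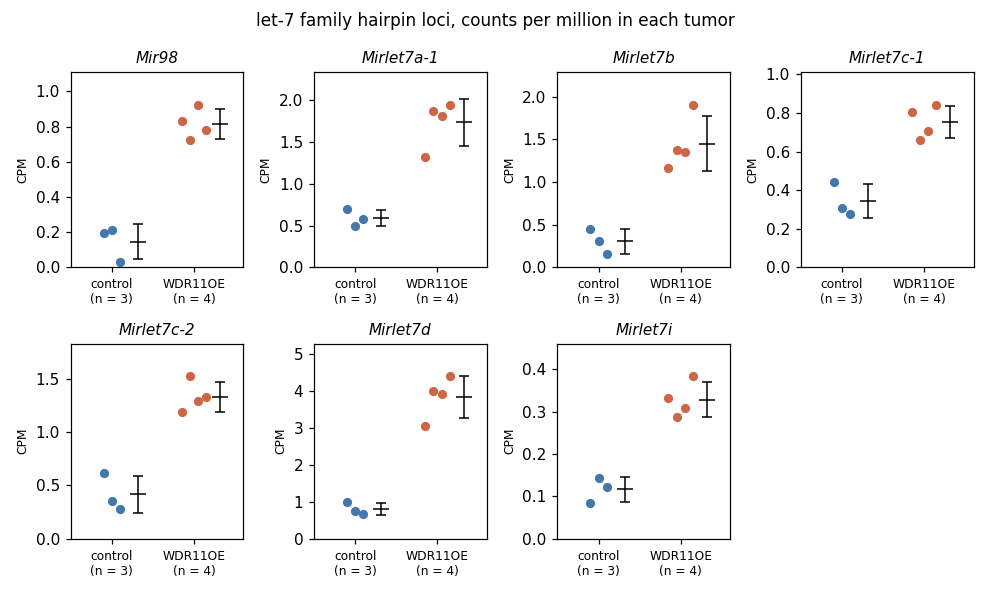
CPM of the 7 tested let-7 family hairpin loci in each tumor, with 1 panel per locus and its own axis from 0. Points are tumors and the bar with caps gives the mean and SD. Every WDR11OE tumor is above every control in all 7 panels, and the highest value is 4.40 CPM. Mir98, Mirlet7b and Mirlet7i passed the filter only with the help of the WDR11OE tumors.

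The mature let-7 sequences (RefSeq, GRCm38.p6) share a seed at bases 2 to 8, shown in capitals, which is the stretch that pairs with a target. They are printed for the loci with the largest counts and for miR-98, which differs from the others outside the seed.
let-7a: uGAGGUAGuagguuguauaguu
let-7b: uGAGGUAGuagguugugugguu
let-7c: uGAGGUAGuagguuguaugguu
let-7d: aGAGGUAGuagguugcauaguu
miR-98: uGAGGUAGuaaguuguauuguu

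Matches to the seed (CTACCTC on the sense strand) were counted in the longest annotated 3′ UTR of each gene. The 7 members of the let-7 axis all had at least 1, and Prom1, Nes and Msi1 had none. Of 14924 tested genes with an annotated coding transcript, 1515 (10.2%) had at least 1. Any gene among them without an annotated 3′ UTR was counted as having no match. Lin28b, Hmga2 and Igf2bp1 had 4 each, Lin28a had 2, and Hmga1, Igf2bp2 and Igf2bp3 had 1. The matches of Lin28b, Hmga2, Igf2bp1 and Igf2bp2 closest to the start of the 3′ UTR are shown with the preceding bases, the match in capitals, because these genes include members that lay above, across and below the controls.
Lin28b (chr10:45100828-45100857, minus strand, NCBIM37): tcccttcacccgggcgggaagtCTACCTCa
Hmga2 (chr10:119801280-119801309, minus strand): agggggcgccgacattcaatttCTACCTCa
Igf2bp1 (chr11:95823092-95823121, minus strand): aggcagtgctgtgcgaagtaaaCTACCTCa
Igf2bp2 (chr16:22059546-22059575, minus strand): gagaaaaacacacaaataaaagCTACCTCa
A match is a description of the sequence and does not show that let-7 acts there. Among the members with 4 matches, Lin28b and Igf2bp1 were above the controls in every WDR11OE tumor and Hmga2 overlapped them. Among those with 1, Hmga1 and Igf2bp2 were below the controls and Igf2bp3 overlapped them. Over the tested genes with an annotated coding transcript, the median log2 fold change was 0.06 for the 13409 genes without a match. These 13409 include any gene without an annotated 3′ UTR. The median was -0.01 for the 1334 with 1, -0.10 for the 156 with 2 and 0.14 for the 25 with 3 or more. The share of genes that were lower was 16.6% without a match, 20.5% with 1 and 19.9% with 2, and it was 5 of the 25 genes with 3 or more. The share that were higher was 18.1% without a match, 13.8% with 1 and 4.49% with 2, and 4 of the 25 genes with 3 or more. Neither the medians nor the shares were tested between classes.

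Genes that make and turn over let-7 changed in part. The edgeR calls of this and the following lists stand beside 15.8% of all tested genes that were lower and 18.1% that were higher. For the unadjusted p, limma and DESeq2 no share over all genes is given. Of 14 genes of this list tested, 4 fell and 0 rose, and 2 were higher at an unadjusted p under 0.05, with a median log2 fold change of -0.01 beside 0.08 over all tested genes. limma with voom and DESeq2 likewise gave 0 higher, whereas upper quartile scaling and removal of the exon length trend each gave 1 higher. The genes that fell were Eif2c2 (Argonaute 2, log2 fold change -1.30 ± 0.14, SE), Eif2c1 (Argonaute 1, -0.99 ± 0.13), Drosha (the nuclear processing enzyme, -0.79 ± 0.09) and Khsrp (a let-7 precursor binding protein, -0.95 ± 0.11), at edgeR adjusted p between 0.00113 and 0.00174. Eif2c2 was at 295 ± 17.7 CPM (SD, n = 3) in the controls and 119.6 ± 21.9 CPM (SD, n = 4) in the WDR11OE tumors. The most abundant gene of the list over the 7 tumors, Zcchc11 (the uridylyltransferase that LIN28 recruits), was at 219 ± 2.47 CPM (SD, n = 3) and 181 ± 29.7 CPM (SD, n = 4) and did not pass the test (adjusted p = 0.131).

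Of 22 known let-7 targets outside the members, 6 fell and 3 rose, beside 15.8% of all tested genes that were lower and 18.1% that were higher. The median log2 fold change of these targets was -0.10. Ccnd2 (cyclin D2) fell by 1.41 ± 0.17 (SE) on the log2 scale (edgeR adjusted p = 0.00151), Plagl2 by 1.31 ± 0.18 (adjusted p = 0.00215), Irs2 by 0.88 ± 0.12 (adjusted p = 0.00206) and Thbs1 by 0.96 ± 0.19 (adjusted p = 0.00785). Irs2 lost its call with the GC trend removed (adjusted p = 0.122; range over the 18 alternatives 2.4e-12 to 0.122). Myc, the gene that drives the model, had a mean of 914 ± 169 CPM (SD, n = 3) in the controls and fell to 347 ± 75.5 CPM (SD, n = 4; log2 fold change -1.40 ± 0.20, SE; adjusted p = 0.00227), and its row can hold transcripts of the retrovirus. Nr6a1 rose by 0.86 ± 0.19 (SE; adjusted p = 0.0113), and Tgfbr1 by 0.32 ± 0.08 (SE; adjusted p = 0.0207), a call lost in 11 of the 18 alternatives. Rictor, named after its values were seen, is the third and rose by 0.30 ± 0.10 (SE; adjusted p = 0.0483). The number of targets that rose went from 3 to 1 without control replicate 2 or WDR11OE replicate 1, 2 or 3. It was also 1 with DESeq2 size factors, no filter, the GC or exon length trend removed, or the libraries of a shared number summed, and 0 at adjusted p under 0.01.

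Among 9 client RNAs of IGF2BP and genes of the IGF axis, 5 fell and 0 rose at any of the thresholds, also with limma and DESeq2, and the median log2 fold change was -0.39. Myc, which is in this list too, is 1 of the 5. Igf2 was at 2332, 1562 and 1327 CPM in the controls and at 501, 709, 872 and 486 CPM in the WDR11OE tumors (log2 fold change -1.44 ± 0.27, SE; edgeR adjusted p = 0.00687). Actb fell by 0.96 ± 0.13, Cd44 by 0.82 ± 0.09 and Insr, the insulin receptor gene, by 0.28 ± 0.07 (SE), at adjusted p = 0.00221, 0.00112 and 0.0246, and Insr lost its call in 7 of the 18 alternatives. Of 5 genes that HMGA or Musashi proteins regulate, Numbl fell by 0.59 ± 0.13, Cdkn2b by 0.61 ± 0.17 and Cdkn1a by 0.69 ± 0.22 (SE; adjusted p = 0.0109, 0.0292 and 0.0483), and 0 rose by any of the 3 tools or at an unadjusted p under 0.05. All 3 calls were lost with the GC trend removed. Cdkn1a lost its call in 13 of the 18 alternatives, among them leaving out any 1 tumor other than control replicate 3, and Cdkn2b in 7, among them leaving out control replicate 2 or WDR11OE replicate 1, 2 or 3 (highest adjusted p 0.185 and 0.203). The list then had 1 lower gene without control replicate 2 or without WDR11OE replicate 1, 2 or 3. Cdkn2a was the most abundant of these, at 66.7 ± 9.94 CPM (SD, n = 3) and 61.6 ± 13.3 CPM (SD, n = 4). Numb, named after its values were seen, was at 22.7 ± 1.07 CPM (SD, n = 3) and 22.1 ± 0.607 CPM (SD, n = 4). It did not pass the test (log2 fold change -0.04; edgeR adjusted p = 0.747).

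Of 23 neural stem and progenitor genes, 5 fell and 2 rose, with a median log2 fold change of -0.20. These counts stand beside 15.8% of all tested genes that were lower and 18.1% that were higher. Sox9 fell by 1.53 ± 0.16 (SE) on the log2 scale, with means of 169.7 ± 12.7 CPM (SD, n = 3) and 58.9 ± 13.2 CPM (SD, n = 4; edgeR adjusted p = 0.00112), and Notch1 by 0.64 ± 0.15 (adjusted p = 0.0155). Vim, the most abundant gene of the list, fell by 0.47 ± 0.14 and Fut4 by 0.67 ± 0.18 (SE; adjusted p = 0.0342 and 0.0237), and Cd44 is named above. Fabp7, a radial glia gene, rose by 1.31 ± 0.35 (SE; adjusted p = 0.0253), and Bmi1 by 0.23 ± 0.06 (SE; adjusted p = 0.0213). With the GC trend removed 2 genes of the list were lower and 0 higher. Without 1 of the tumors Fabp7, Notch1, Vim, Fut4 and Bmi1 could each lose the call (highest adjusted p over the 18 alternatives 0.0803, 0.473, 0.237, 0.133 and 0.828). The list had 3 lower genes without control replicate 2 or 3 or WDR11OE replicate 1, 2 or 3. It had 0 higher genes without control replicate 1 or WDR11OE replicate 3, and 1 without control replicate 2 or WDR11OE replicate 1 or 2. Of 10 pluripotency genes 2 passed the filter and both fell, Klf4 by 1.39 ± 0.18 and Sall4 by 1.58 ± 0.29 (SE; adjusted p = 0.00163 and 0.00631). Of 13 tested neuronal differentiation genes 0 fell and 0 rose, with 1 in each direction at an unadjusted p under 0.05 and by DESeq2 and 0 by limma. There was 1 higher gene without control replicate 1, with upper quartile scaling and with a filter of 1 CPM in 3 tumors. The most abundant neuronal differentiation gene, Snap25, ranged from 1.28 to 141 CPM over the 7 tumors.

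Markers of skeletal muscle moved with the groups. Of 10 markers 9 were tested and all 9 rose, with a median log2 fold change of 6.34, also with Mb, which was at 0 in the controls, set to its bound. Ckm, Mb, Myh1, Myh4, Acta1 and Mylpf were too low in the controls to pass the filter without the WDR11OE tumors. The filter thus favored a rise of these genes, and neither the shared direction nor the median is read as a result. The sum of the 10 markers was 5.84, 3.89 and 3.52 CPM in the controls and 94.7, 59.8, 139 and 47.0 CPM in the WDR11OE tumors. Myh4, the most abundant, was at 0.167, 0 and 0 CPM in the controls and at 25.7, 12.9, 36.2 and 11.9 CPM in the WDR11OE tumors. The raw counts of several of these genes were close to each other in the 4 WDR11OE libraries, whose totals differ widely. Myh4 had 1084, 1030, 1176 and 1089 counts, Acta1 696, 705, 764 and 725, and Tnnt3 533, 552, 513 and 518, whereas Tnni2 had 378, 933, 381 and 581. The CPM of the first 3 genes thus followed the inverse of library depth. Where these reads came from was not tested. The part of muscle RNA in the changes of the members was not tested. Endothelial markers were lower for 2 of 7 genes, Cdh5 by 1.02 ± 0.14 and Flt1 by 0.74 ± 0.09 (SE, log2 scale; edgeR adjusted p = 0.00238 and 0.00151). Flt1 lost its call with the exon length trend removed (log2 fold change -0.49; highest adjusted p over the 18 alternatives 0.1998). Their sum was 155, 196 and 157 CPM in the controls and 132, 123, 113 and 99.4 CPM in the WDR11OE tumors, with Vwf the most abundant and no marker at 0, and their part was not tested either.

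Markers of brain, vessel wall and blood cells varied from tumor to tumor within the groups. Cortical neuron markers summed to 387, 141 and 78.2 CPM in the controls and to 15.8, 26.7, 175 and 559 CPM in the WDR11OE tumors, with Gad1 the most abundant, and 1 of 8 fell and 0 rose by edgeR, limma and DESeq2 and at an unadjusted p under 0.05. Astrocyte markers, led by Slc1a2 in mean CPM over the 7 tumors but not in the WDR11OE tumors alone, summed to 414 to 631 CPM in the controls and 246 to 788 CPM in the WDR11OE tumors, and 1 of 6, S100b, rose by 0.94 ± 0.15 (SE; edgeR adjusted p = 0.00359). Pericyte and fibroblast markers, led by Col1a1, summed to 422 to 1440 CPM in the controls and 265 to 512 CPM in the WDR11OE tumors, and 1 of 6, Pdgfrb, fell by 0.60 ± 0.12 (SE; adjusted p = 0.00865), a call lost with the GC trend or the exon length trend removed (highest adjusted p 0.141). Oligodendrocyte (Mbp), microglia and macrophage (C1qa), ependymal and choroid plexus (Ttr) and erythroid (Hbb-b1) markers held 6, 7, 3 and 5 tested genes, and none of these passed the test by edgeR or limma in either direction. DESeq2 and the unadjusted p under 0.05 each gave 1 lower gene, among the ependymal and choroid plexus markers, and 1 microglia and macrophage marker was lower without control replicate 1. Their sums over the 7 tumors ranged from 114 to 349, from 68.9 to 193, from 1.16 to 9.03 and from 23.6 to 1124 CPM. Of 15 granule lineage and medulloblastoma markers, 12 were tested and 2 fell, Myc and En2 (by 1.10 ± 0.28, SE; adjusted p = 0.0208). In the same test 0 rose, whereas 1 was higher by DESeq2 and 1 at an unadjusted p under 0.05. Removing the GC trend or the exon length trend also gave 1 higher marker. En2 lost its call in 6 of 17 alternatives, among them without control replicate 1 or 3 or WDR11OE replicate 1 (highest adjusted p 0.0753). The markers summed to 1707, 1479 and 1390 CPM in the controls and to 1012, 1022, 794 and 765 CPM in the WDR11OE tumors. Without Myc the sums were 598, 658 and 578 CPM in the controls and 622, 591, 516 and 476 CPM in the WDR11OE tumors, and the groups overlapped. Atoh1, which defines granule neuron progenitors, was at 0 in all 7 tumors, and Barhl1 was at 0 in the controls.

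The genes whose log2 CPM followed each member most closely over the 7 tumors are given with Pearson's r as a description. Each r spans both groups and therefore includes their difference. Msi1 was followed by Zscan2, Scaf1 and Ube3b (r = 0.998, 0.998 and 0.996), and Hmga1 by Atxn7l3b, Tmem109 and Isyna1 (r = 0.998, 0.996 and 0.993). Igf2bp2 was followed by Lcn2 and Letm1 (r = 0.989 and 0.988), and Igf2bp3 by Ino80b, Ttf2 and Gpx1 (r = 0.991, 0.984 and 0.981). For Lin28b these were Parp9, Psmb10 and Cd302 (r = 0.983, 0.981 and 0.980), and for Igf2bp1 Dnajc12, Pls3 and Gpr65 (r = 0.983, 0.982 and 0.977). Hmga2 was matched by Rnf135, Kcnt1 and Slc22a4 (r = 0.989, 0.985 and 0.982), and Prom1 by Fam171a2, 1190002N15Rik and Msrb2 (r = 0.990, 0.979 and 0.976). Nes, which varied least, had the lowest values, with Slc35c2, Mttp and Dnajb9 (r = 0.966, 0.943 and 0.933). These were taken from the top of 14806 genes compared, so high values of r are found by the choice itself.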

How the data were processed

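The authors mapped the reads to mm9 (NCBIM37.67) with their StrongArm pipeline, for which the submitters' processing notes name CASAVA 1.7, STAR and BWA, counted them per gene with HTSeq, and deposited the counts unnormalized, as whole numbers for each gene in each tumor. The counting version and strand setting are not given in the sources used here. The labels name a TruSeq RNA v2 kit, the methods stranded total RNA.

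From these counts, genes kept by filterByExpr were scaled by TMM and tested in R 4.3.3 with the quasi-likelihood test of edgeR 4.0.16, with condition as the only term and Benjamini-Hochberg adjustment over 17389 genes. SE is the size of the log2 fold change divided by the square root of F. Single genes were also compared by a two-sided exact permutation test over the 35 assignments of 7 tumors into 4 and 3, on log2 CPM with a prior count of 2, where the smallest p is 0.0286. RPKM used the merged exons of the NCBIM37 annotation, which matched 33606 rows. Labels do not say that each tumor came from its own mouse, so p-values measure the spread between samples. The counts of replicates differed by far more than sampling noise (chi-square per degree of freedom between 22.6 and 227). The floor covers counting error only.

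Alternatives were limma 3.58.1 with voom, DESeq2 1.42.0, other scalings and filters, removal of trends on GC content or exon length, a threshold of 0.01, summing the 2 WDR11OE libraries whose titles share a number, and leaving out each tumor. Genes named are the members, of each list the most abundant by mean CPM over the 7 tumors, the lowest and highest call and up to 4 more calls by p, copies and antisense partners of members, let-7, mir-98 and mir-125 loci, Wdr11, Myc, and the 3 genes most correlated with each member, and some genes the rule takes are not reported here. Msi2, Numb, Huwe1, the raw counts of muscle genes, the marker sum without Myc, the background of microRNA rows and the ratio of Igf2bp1 to Igf2bp2 were singled out with values in view. The members and lists were chosen with earlier results of these data known.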

Additional observations from a re-analysis of the deposited data

Results flagged for a closer look

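The let-7g hairpin locus, Mirlet7g, was at 0.401 CPM in WDR11OE replicate 3, from 13 counts, against 0.118, 0.125 and 0.164 CPM in the other WDR11OE tumors, a sample far from the others of its group. In the controls it was at 0.0278, 0.119 and 0 CPM. It is 1 of 19 groups of 4 tumors looked at, and chance flags about 1 in 20.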

How the results depend on the processing

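The calls of Igf2bp2 and Msi1 kept their direction and their side of the threshold under all 18 alternatives. That of Hmga1 was lost with the GC trend removed (log2 fold change -0.57, adjusted p = 0.117). Of 49 named genes and loci called, 30 were called under every alternative that gave them a value, and 13 lost the call with the GC trend removed and 14 with the exon length trend removed. The number of members higher went from 0 to 1 (Lin28b) with DESeq2 and with the exon length trend removed. Leaving out 1 tumor gave 3 to 4 members lower and 0 higher.

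The number of all genes higher went from 3150 to 2093 with no filter, 1178 with the GC trend removed, 1834 with the exon length trend removed, 1629 with the libraries of a shared number summed and 1549 at adjusted p under 0.01, and to between 1560 and 2986 without 1 tumor (1560 without WDR11OE replicate 1, 1657 without WDR11OE replicate 2 and 2045 without control replicate 2). The number of all genes lower went from 2744 to 1697 with the GC trend removed and 1552 at adjusted p under 0.01, and to between 2011 and 2868 without 1 tumor. A stricter threshold gives fewer calls by construction, and the cause of the other changes was not tested.

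The log2 fold change of Hmga2 turned to 0.023 with the exon length trend removed and 0.014 with the libraries summed, and lay between -0.30 and 0.064 without 1 tumor, and the difference in mean log2 CPM of Hmga2 between -0.34 and 0.082. The log2 fold change of Nes turned to -0.0068 with DESeq2, -0.0073 with its size factors, -0.017 with no filter and -0.026 with the libraries summed, and lay between -0.037 and 0.084 without 1 tumor. The log2 fold change of Bmi1 turned to -0.048 with the GC trend removed. The cause was not tested.

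Of 648 counts over lists, 63 moved over 1.5 times, and of 310 medians, 20 moved by over 1 SD. Without 1 tumor the permutation test allows no p under 0.0667 or 0.1, so those 35 losses say nothing about stability. With library size scaling the permutation p of Lin28b and Igf2bp1 was 0.0571. No difference was computed for Lin28a, which was at or under the floor at the depth of these libraries.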
